A study of Homo sapiens with 3 samples.

Results

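The values described here belong to 37 genes that encode the enzymes of glycolysis, the pentose phosphate pathway and the steps at which pyruvate and NADPH are handled. The genes were taken by symbol from a fixed list of enzymes of these pathways, by a rule that sets no limit on their levels, out of 18856 genes listed in at least 1 of 3 libraries. All 37 were listed in all 3 libraries, and 36 of them had at least 10 reads in every library. The exception was HK2, which had 8 reads in the A549 library.

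Glycolysis splits glucose to pyruvate in the cytosol and yields ATP and NADH. Lactate dehydrogenase then turns pyruvate into lactate, or the pyruvate dehydrogenase complex commits it to the mitochondrial citric acid cycle. The pentose phosphate pathway branches off at glucose 6-phosphate and supplies ribose for nucleotides and NADPH for reductive synthesis and for the defence against oxidants. Many of these steps are served by several isoenzymes from separate genes, which differ between tissues and are often altered in tumour cell lines.

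Every library was made at low input, from about 10 pg of polyA+ mRNA. Low-Input, Equal-Amplification (LIEA) fragments the RNA and ligates adapters to the fragments. The cDNA library is amplified by PCR, and single library molecules are then amplified on Ion Torrent beads. Smart-seq2 primes full-length cDNA with oligo-dT and amplifies it before an Illumina library is made. The cDNA was amplified for the same number of PCR cycles in both methods. LIEA was applied to HBE, a line of human bronchial epithelial cells, and to A549, a line from a lung adenocarcinoma, and Smart-seq2 to HBE. The RNA of each line was diluted from bulk RNA. The labels name no agent and no engineered genetic change in any group, and each library stands for 1 cultured line and not for a tissue. Each group had 1 library, so there are no replicates, no test was possible, and no difference below has a check against the spread between libraries.

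Mapped reads, as recovered from the deposited values, numbered 4605855 in the HBE library made by LIEA, 4154060 in that of A549 and 9845150 in the Smart-seq2 library. At these depths 3 reads, taken as the floor of detection, correspond to between 0.305 and 0.722 reads per 1000000. Levels are given in rpkM, the reads per kilobase of transcript and per 1000000 mapped reads, which allows comparison between genes. Ratios are log2 ratios or folds of rpkM with a 95% counting interval, which covers the error of counting reads and no other, since PCR copies of 1 molecule are counted as separate reads. The line labels were checked against marker genes. The 5 markers of airway basal epithelium summed to 1722 rpkM in LIEA of HBE, 6144 in Smart-seq2 of HBE and 12.9 in A549, where KRT14 was not listed. The 5 markers of simple epithelium were listed in all libraries and summed to 1700, 3442 and 8530 rpkM in the same order, but the higher sum in A549 was due to KRT8 and KRT18, while EPCAM was 7.84-fold, CDH1 2.94-fold and KRT19 1.37-fold lower there than in LIEA of HBE. Of the 4 alveolar markers, SFTPA1 and SFTPC were listed in no library, and the sums were between 1.70 and 15.2 rpkM. The markers of fibroblasts, endothelium and leukocytes summed to between 0.487 and 26.4 rpkM in every library, the highest being the leukocyte sum in A549. The muscle markers summed to 58.3 rpkM in Smart-seq2 and to 3.06 and 2.90 rpkM in LIEA of HBE and A549, all of it ACTA1. A549 is known to lack the CDKN2A locus, but CDKN2A and CDKN2B were listed in neither line, and MTAP beside them had 2 reads in LIEA of HBE, 43 in A549 and 24 in Smart-seq2. MTAP was thus 23.8-fold higher in A549 than in LIEA of HBE (6.21 to 203), opposite to the direction looked for. This locus therefore did not bear out the A549 label.

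The promoters of 5 members that differed between the lines carry short motifs of factors known to act on these pathways. The 5 were chosen as examples after their values were seen, from the members past 2-fold between the lines that held a match. ENO2, PDK2, ALDOC and DLAT held ACGTG too, and ALDOC also TGACNNNGC. PGD held ACGTG as well, outside the bases printed for it. Sequences are from RefSeq on GRCh38.p14, in which 36 of the 37 members were matched and ME2 was not. Each line gives 60 bases within the 250 bases before the annotated start, 5′ to 3′ on the strand of the gene, and capitals mark the motif on either strand. For PGD (chr1:10398817-10398876, plus strand) and ME1 (chr6:83431175-83431234, minus strand) the motif is TGACNNNGC, the core of the antioxidant response element bound by NRF2. For PFKFB3 (chr10:6202775-6202834), HK2 (chr2:74834971-74835030) and PDK1 (chr2:172556023-172556082), all on the plus strand, it is ACGTG, a form of the core of the hypoxia response element. The form GCGTG was not searched, so it is neither marked nor counted here. In PFKFB3 and HK2, ACGTG lies within CACGTG, the E-box, which holds ACGTG on both strands.
PGD: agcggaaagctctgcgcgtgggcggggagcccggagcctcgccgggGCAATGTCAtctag
ME1: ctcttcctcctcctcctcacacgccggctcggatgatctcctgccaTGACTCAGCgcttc
PFKFB3: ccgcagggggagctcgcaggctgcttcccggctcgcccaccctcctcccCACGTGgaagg
HK2: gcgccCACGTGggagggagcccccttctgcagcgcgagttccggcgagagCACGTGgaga
PDK1: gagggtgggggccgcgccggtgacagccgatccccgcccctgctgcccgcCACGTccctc
PGD and ME1 were higher in A549, as was PFKFB3, whereas HK2 and PDK1 were lower, so genes with the ACGTG core stood on both sides. The same held for TGACNNNGC, since ALDOC was lower in A549. Members within 2-fold held the motifs too, 12 of them ACGTG and 6 TGACNNNGC. ACGTG stood before 33.3% of the starts of members within 2-fold, 33.3% of those higher and 62.5% of those lower in A549. For TGACNNNGC the shares were 14.3%, 16.7% and 12.5% in the same order. The higher members had 12 starts and the lower 8, so these shares rest on few starts. Over the 62 annotated starts of the 36 members, ACGTG was found before 23 (37.1%), against 18.5% of the 35116 starts of all genes. CACGTG was found before 8 of the 62 (12.9%) against 6.3% of all starts, and TGACNNNGC before 9 (14.5%) against 10.9%. Over the starts of genes listed in a library, the shares were 21.1% for ACGTG, 7.7% for CACGTG and 11.5% for TGACNNNGC. Such matches describe letters in these windows, and the binding of a factor was not measured.

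**Figure D1:**
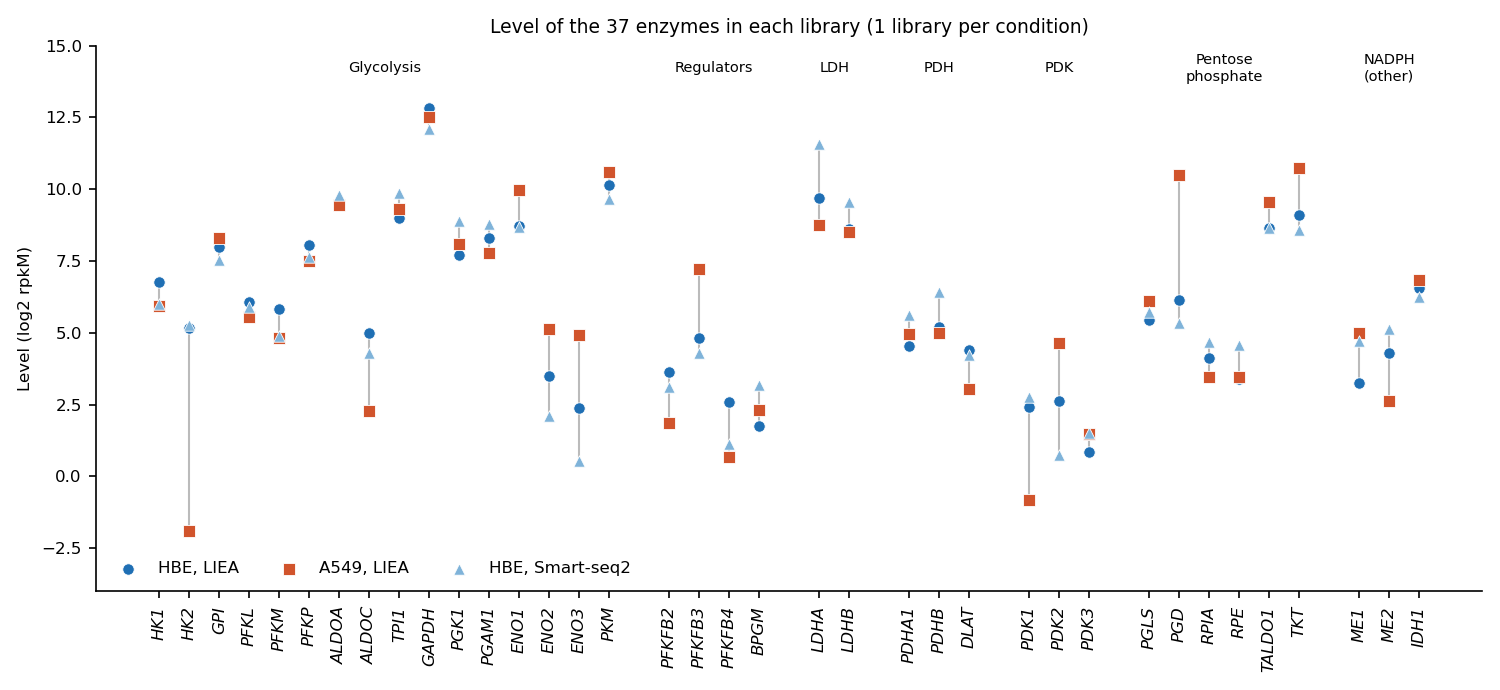
Level of each of the 37 enzymes in the 3 libraries, as deposited log2 rpkM on the vertical axis and genes grouped by role on the horizontal axis, with dark circles for LIEA of HBE, squares for LIEA of A549 and light triangles for Smart-seq2 of HBE. Each point is 1 library, and the grey line joins the lowest and the highest. HK2 has the widest spread, from 0.272 rpkM in A549 to 38.6 rpkM in Smart-seq2 of HBE, and PGD stands at 1456 rpkM in A549 against 71.4 and 40.5 in the HBE libraries.

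The comparison of A549 with HBE, both by LIEA, addresses how the enzymes differ between the tumour line and the bronchial line. Of the 37 members, 8 were at least 2-fold higher in A549 (21.6%), against 18.0% of the 12987 genes compared. These were ENO1, ENO2, ENO3, PFKFB3, PDK2, PGD, TKT and ME1. Another 7 members were at least 2-fold lower (18.9%), against 20.2% of the genes compared, namely HK2, ALDOC, PFKFB2, PFKFB4, DLAT, PDK1 and ME2. Both shares lay near those of all genes. The median log2 ratio of the members was 0.06, with an order-statistic interval of -0.55 to 0.47 over genes, and that of all genes was -0.15. With TPM the members' median was -0.10. The counting interval lay above 1 for 17 members and below 1 for 16, and held 1 for ALDOA, PDHB, BPGM and RPE. The same counts were not made over all genes. Intervals narrow as reads increase, so these counts also depend on read depth.

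The size of the differences varied much more between the roles than the medians show. The 16 glycolytic enzymes summed to 11330 rpkM in LIEA of HBE and 10870 rpkM in A549, a ratio of 0.959, with 3 members past 2-fold upwards and 2 downwards. GAPDH made up most of both sums, and without it they were 4140 and 5081 rpkM, a ratio of 1.23 in the opposite direction. The 6 pentose phosphate enzymes summed to 1086 and 4008 rpkM, a ratio of 3.69, and their share of all mapped reads was 0.234% in HBE and 0.89% in A549. In this group 4 of 6 members had a counting interval above 1, a count not made over all genes. Past 2-fold upwards were 2 of these (33.3% of the group, against 18.0% of all genes compared). None was past 2-fold downwards, against 20.2% of all genes compared. The sum for the group rests on PGD, TKT and TALDO1, and by geometric means the ratio was 2.25. The 37 members together took 2.53% of the reads in HBE and 3.08% in A549.

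**Figure D2:**
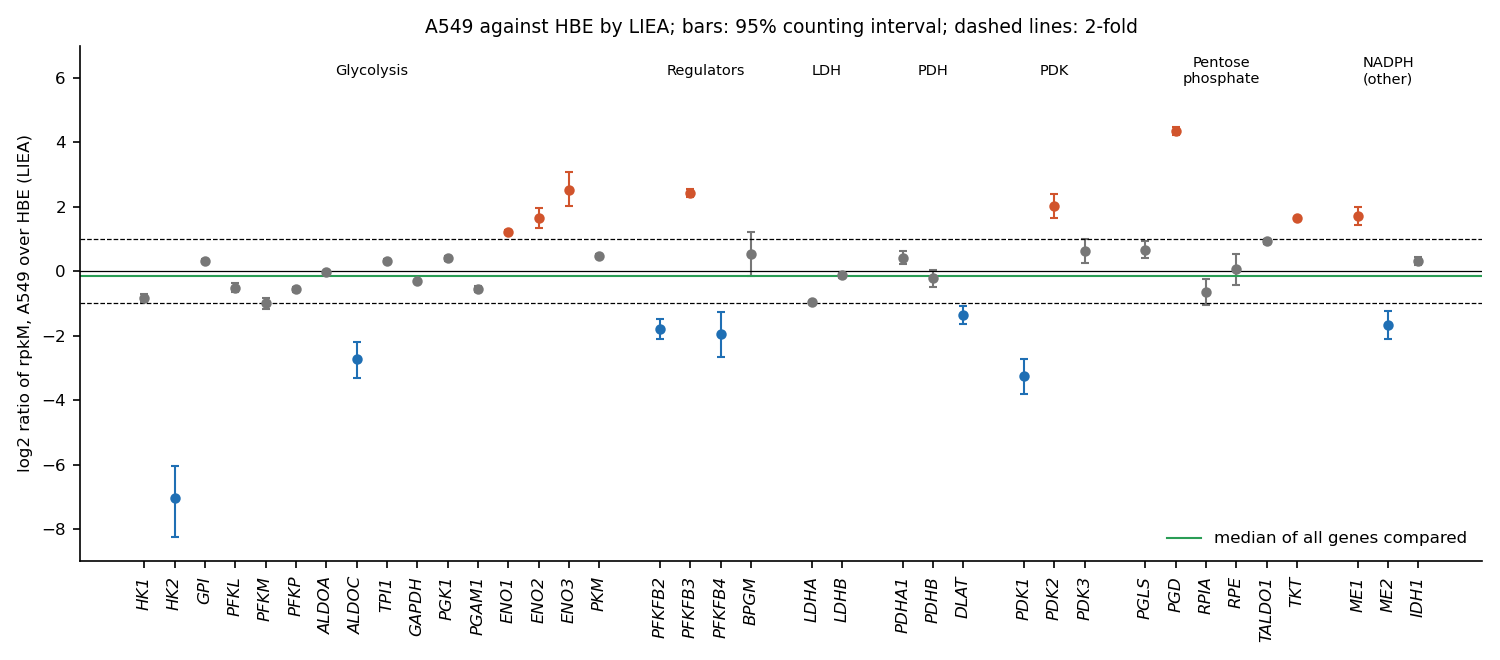
Log2 ratio of rpkM in A549 over HBE, both by LIEA, for each of the 37 enzymes grouped by role, with bars for the 95% counting interval. Dashed lines mark 2-fold, the green line the median of all genes compared (-0.15), and colour marks members past 2-fold. PGD lies highest at 4.35 and HK2 lowest at -7.03.

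Hexokinase phosphorylates glucose and thereby traps it in the cell. HK2, an isoenzyme that binds mitochondria and is induced in many tumours and by insulin in muscle, lies at chr2:75061254-75120486 on the plus strand of hg19. It had 35.5 rpkM (1161 reads) in LIEA of HBE, 38.6 rpkM (2696 reads) in Smart-seq2 of HBE and 0.272 rpkM (8 reads) in A549. The HBE libraries were alike and the A549 library stood far below both, at percentile 11.4 of its listed genes against 86.3 and 86.7. The level in A549 was 131-fold lower than in LIEA of HBE (66.2 to 304). HK1, the broadly expressed isoenzyme, had 109 rpkM in LIEA of HBE, 61.2 in A549 and 64.0 in Smart-seq2. Its ratio of A549 to HBE was -0.83 on the log2 scale, and its A549 level was close to that of HBE by the other method. HKDC1, a further hexokinase that is not among the 37, had 1.53 rpkM (26 reads) in LIEA of HBE, 30.3 rpkM (465 reads) in A549 and 0.165 rpkM (6 reads) in Smart-seq2. It was 19.8-fold higher in A549 (13.4 to 30.7), and its level there was above that of HK2 and below that of HK1.

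Between glucose 6-phosphate and the triose phosphates, ALDOC was the 1 gene past 2-fold. GPI, the isomerase that makes fructose 6-phosphate, had 253 rpkM in LIEA of HBE, 317 in A549 and 186 in Smart-seq2. The phosphofructokinases, which catalyse the committed step, were all lower in A549, with log2 ratios of -0.51 for PFKL, -0.997 for PFKM and -0.56 for PFKP. PFKM was the member nearest to the 2-fold limit, at 56.3 rpkM in LIEA of HBE and 28.2 in A549. Aldolase cleaves fructose 1,6-bisphosphate. ALDOA, the main isoenzyme, had 721 rpkM in LIEA of HBE, 703 in A549 and 886 in Smart-seq2, so the lines could not be separated by counting. ALDOC, best known from brain, had 32.0 rpkM (243 reads) in LIEA of HBE, 4.81 rpkM (33 reads) in A549 and 19.5 rpkM (317 reads) in Smart-seq2, and was 6.64-fold lower in A549 than in LIEA of HBE (4.604 to 9.87). TPI1, which interconverts the triose phosphates, had a log2 ratio of 0.31. Its A549 level of 634 rpkM was nevertheless below the 933 rpkM of HBE by Smart-seq2.

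In the later, ATP-yielding steps of glycolysis, the enolases stood out. GAPDH, which oxidises glyceraldehyde 3-phosphate and was the highest member in each library, had 7193 rpkM in LIEA of HBE, 5785 in A549 and 4341 in Smart-seq2. Since GAPDH is often used to scale expression, its log2 ratio of -0.31 between the lines is given beside a median of -0.15 for all genes. PGK1, which forms ATP from 1,3-bisphosphoglycerate, had a log2 ratio of 0.40, and PKM, the pyruvate kinase of most tissues, 0.47. Against Smart-seq2 of HBE, PGK1 was lower in A549 (274 against 471.5 rpkM) and PKM higher (1554 against 808.8). PGAM1, which moves the phosphate group of phosphoglycerate, had -0.55, but its transcript is 96.8% identical to that of PGAM4 over 1690 nt, and 1043 reads of LIEA of HBE and 524 of A549 were counted on PGAM4. The level of PGAM1 is therefore uncertain.

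Enolase makes phosphoenolpyruvate. ENO1, the ubiquitous form, had 425 rpkM in LIEA of HBE, 996 in A549 and 410 in Smart-seq2 of HBE. The HBE libraries lay close together and A549 was 2.34-fold above LIEA of HBE (2.26 to 2.42). ENO2, known as the neuronal form, had 11.2 rpkM in LIEA of HBE, 35.1 in A549 and 4.32 in Smart-seq2, a 3.13-fold difference between the lines (2.55 to 3.87). ENO3, known as the muscle form, had 5.26 rpkM (37 reads) in LIEA of HBE, 30.3 rpkM (192 reads) in A549 and 1.46 rpkM (22 reads) in Smart-seq2. It was 5.75-fold higher in A549 (4.03 to 8.42). All 3 enolase genes were thus past 2-fold in the same direction, although ENO2 and ENO3 stayed far below ENO1.

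The bifunctional PFK-2/FBPase-2 enzymes set the level of fructose 2,6-bisphosphate, the strongest activator of phosphofructokinase. PFKFB3, the form with the highest kinase activity, had 28.0 rpkM (587 reads) in LIEA of HBE, 151 rpkM (2846 reads) in A549 and 19.9 rpkM (890 reads) in Smart-seq2. It was 5.38-fold higher in A549 (4.92 to 5.89). The other forms went the opposite way. PFKFB2, at 12.4 rpkM in LIEA of HBE, 3.61 in A549 and 8.75 in Smart-seq2, was 3.45-fold lower in A549 (2.78 to 4.31). PFKFB4, at 6.10, 1.59 and 2.18 rpkM in the same order, was 3.84-fold lower (2.42 to 6.34), but the A549 level was within 2-fold of that of HBE by Smart-seq2. BPGM, which makes 2,3-bisphosphoglycerate, had 33 reads in LIEA of HBE and 43 in A549, and its ratio was not separable from 1 at this depth.

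At the fate of pyruvate, neither LDHA nor LDHB passed 2-fold between the lines. LDHA, the form that favours lactate, had 832 rpkM in LIEA of HBE, 426 in A549 and 3014 in Smart-seq2, and was 1.95-fold lower in A549 (1.88 to 2.02). LDHB, which favours pyruvate, had 396, 364 and 749 rpkM in the same order. Of the pyruvate dehydrogenase complex, DLAT, its acetyltransferase core, had 21.3 rpkM in LIEA of HBE, 8.31 in A549 and 18.6 in Smart-seq2, and was 2.57-fold lower in A549 (2.13 to 3.11). The E1 subunits differed less, with log2 ratios of 0.43 for PDHA1 and -0.21 for PDHB. Both were lower in A549 than in Smart-seq2 of HBE, PDHA1 at 30.9 against 49.2 rpkM and PDHB at 31.8 against 85.8. DLD, the E3 subunit, which is not among the 37, was 2.44-fold lower in A549 (2.05 to 2.91).

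The kinases that switch this complex off differed in opposite directions. PDK1 had 5.29 rpkM in LIEA of HBE, 0.561 in A549 and 6.80 in Smart-seq2, and was 9.43-fold lower in A549 (6.59 to 13.9). PDK2 had 6.203 rpkM (77 reads) in LIEA of HBE, 25.2 rpkM (282 reads) in A549 and 1.70 rpkM (45 reads) in Smart-seq2, and was 4.06-fold higher in A549 (3.15 to 5.30). PDK3 had a log2 ratio of 0.62 with 106 and 147 reads. PDK4, a kinase induced by fasting and glucocorticoids that is not among the 37, had 6 reads in LIEA of HBE, 390 in A549 and none in Smart-seq2, and was 72.1-fold higher in A549 (32.8 to 198). PDK1 and PDK4 thus stood at opposite ends of this family in A549. The reads of PDK1 and PDK4 are known only up to a whole factor, taken as 3 and 2, and their intervals would be wider with fewer reads. The phosphatases PDP1 and PDP2, which reactivate the complex, were 14.6-fold and 3.59-fold lower in A549 than in LIEA of HBE. The gap to Smart-seq2 of HBE was smaller. PDP1 had 36.2 rpkM in LIEA of HBE, 2.49 in A549 and 11.5 in Smart-seq2, and PDP2 10.3, 2.88 and 5.87.

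Among the 37 members, the largest difference upwards lay in the pentose phosphate pathway. PGD, 6-phosphogluconate dehydrogenase, which makes NADPH and ribulose 5-phosphate, lies at chr1:10458649-10480568 on the plus strand of hg19. It had 71.4 rpkM (637 reads) in LIEA of HBE, 1456 rpkM (11713 reads) in A549 and 40.5 rpkM (773 reads) in Smart-seq2. Its level in A549 was 20.4-fold above that in LIEA of HBE (18.8 to 22.1), with both HBE libraries far below. H6PD, an enzyme of the endoplasmic reticulum that makes NADPH there and is not among the 37, was 2.46-fold higher (2.07 to 2.94). PGLS, the lactonase that acts before PGD, had 43.5 rpkM in LIEA of HBE, 69.2 in A549 and 52.5 in Smart-seq2, so that its log2 ratio between the lines was 0.67.

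In the non-oxidative branch, which interconverts sugar phosphates, the transferases and the isomerases differed. TKT, transketolase, had 545 rpkM in LIEA of HBE, 1702 in A549 and 384 in Smart-seq2, and was 3.12-fold higher in A549 (3.04 to 3.21). TALDO1, transaldolase, had 398, 760 and 404 rpkM in the same order, so the HBE libraries could not be separated by counting and A549 was 1.91-fold above LIEA of HBE (1.81 to 2.01). RPIA, the ribose isomerase, had 17.3, 11.03 and 25.6 rpkM and was the member of this group that was lower in A549, at -0.65 on the log2 scale. RPE, the epimerase, had 10.5 rpkM in HBE and 10.96 in A549 by LIEA, and its transcript is 96.9% identical to that of RPEL1 over 858 nt, so its level is uncertain.

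Among the enzymes that make NADPH outside the pathway, the malic enzymes exchanged places. ME1, the cytosolic form that makes NADPH, had 9.63 rpkM (156 reads) in LIEA of HBE, 31.6 rpkM (461 reads) in A549 and 26.4 rpkM (915 reads) in Smart-seq2. It was 3.28-fold above LIEA of HBE in A549 (2.73 to 3.95) but only a little above Smart-seq2 of HBE. ME2, the mitochondrial form that works mainly with NAD, had 19.8, 6.25 and 34.9 rpkM in the same order and was 3.17-fold lower in A549 (2.37 to 4.30). IDH1, the cytosolic isocitrate dehydrogenase, had 93.6 rpkM in LIEA of HBE, 116 in A549 and 75.4 in Smart-seq2, and its log2 ratio between the lines was 0.31. ME3, a further mitochondrial malic enzyme that is not among the 37, had 69 reads in A549 and none in either HBE library, and was at least 25.5-fold higher in A549 than in LIEA of HBE at a floor of 3 reads. Its reads carry a whole factor of 3, and with the smallest whole reads the bound was 8.50-fold.

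The other genes of these pathways were taken from a list of 47, of which 31 could be compared between the lines. Of these, 7 were at least 2-fold higher and 6 at least 2-fold lower in A549, shares of 22.6% and 19.4%. Over all genes compared the shares were 18.0% and 20.2%. Beside the genes given above, MPC2, a subunit of the mitochondrial pyruvate carrier, was 2.75-fold higher. Its A549 level of 21.2 rpkM was only a little above the 17.45 rpkM of HBE by Smart-seq2. Lower were PGM2 and PGM1, which interconvert sugar 1- and 6- or 5-phosphates, by 8.48-fold and 2.998-fold, and PRPS2, which makes phosphoribosyl pyrophosphate, by 2.14-fold. HK3, PFKFB1, PDHA2, TKTL2 and FBP1 were listed in no library.

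A549 was also set against both HBE libraries. Against Smart-seq2 of HBE, here and above, the line, the library method and the sequencer differ together and cannot be told apart. At least 2-fold above both lay 7 members (against 12.1% of 13278 genes), namely ENO1, ENO2, ENO3, PFKFB3, PDK2, PGD and TKT. At least 2-fold below both lay 6 members (against 12.7%), namely HK2, ALDOC, PFKFB2, DLAT, PDK1 and ME2. All 7 higher members, and HK2, PDK1 and ME2 among the lower, were bound to pass the second limit once they passed the first, because Smart-seq2 of HBE lay further from A549 than LIEA of HBE did. ME1 and PFKFB4 were thus the members past 2-fold by LIEA that were not past it against Smart-seq2. Between the lines, the sign of the ratio turned with another scaling for RPE (rescaled to TPM) and for ALDOA and LDHB (centred on the median of all genes), while PFKM and LDHA passed 2-fold downwards with TPM, which shifted the median of all genes by -0.16, and TALDO1 passed it upwards with centring, a shift of 0.15.

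Isoenzyme shares describe which gene held most of the transcript level of a step, as no protein or activity was measured. Within HK1 and HK2, the share of HK2 in the summed rpkM was 24.6% in HBE by LIEA (95% Clopper-Pearson interval 23.3 to 26.0), 37.6% in HBE by Smart-seq2 (36.3 to 38.9) and 0.442% in A549 (0.191 to 0.87). With HKDC1 counted in, HKDC1 held 33.1% in A549, against 1.05% in LIEA of HBE and 0.161% in Smart-seq2. A549 therefore had HK1 and HKDC1 transcripts where HBE had HK1 and HK2. Among the PFKFB genes, PFKFB3 held 60.2% in HBE by LIEA, 64.5% by Smart-seq2 and 96.7% in A549. Here the HBE libraries were close and A549 was nearly all PFKFB3.

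The share of LDHA in lactate dehydrogenase was 67.8% in LIEA of HBE (66.8 to 68.7), 53.9% in A549 (52.6 to 55.2) and 80.1% in Smart-seq2 (79.8 to 80.4). The gap between the methods in HBE was thus about as wide as that between the lines. Among the PDH kinases with PDK4 included, PDK1 held 38.8% in HBE by LIEA, 59.8% by Smart-seq2 and 1.04% in A549. PDK2 held 45.5%, 14.9% and 46.7% in the same order, so its share hardly differed between the lines by LIEA. PDK4 held 2.58% in LIEA of HBE and 47.1% in A549, and had no reads in Smart-seq2. ME1 held 32.7% of the ME1 and ME2 sum in LIEA of HBE (28.2 to 37.5), 43.1% in Smart-seq2 (40.7 to 45.4) and 83.5% in A549 (79.4 to 87.1). By contrast PFKP held 68.3%, 68.7% and 70.5% of the phosphofructokinase sum in LIEA of HBE, Smart-seq2 and A549, ALDOA at least 95.8% of the aldolase sum and ENO1 at least 93.8% of the enolase sum. Of the 8 steps, with the 37 genes alone, malic enzyme was the 1 step whose leading gene by rpkM differed between A549 and LIEA of HBE. By reads, which weight long transcripts more, there were 2 such steps, the other being the PDH kinases.

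**Figure D3:**
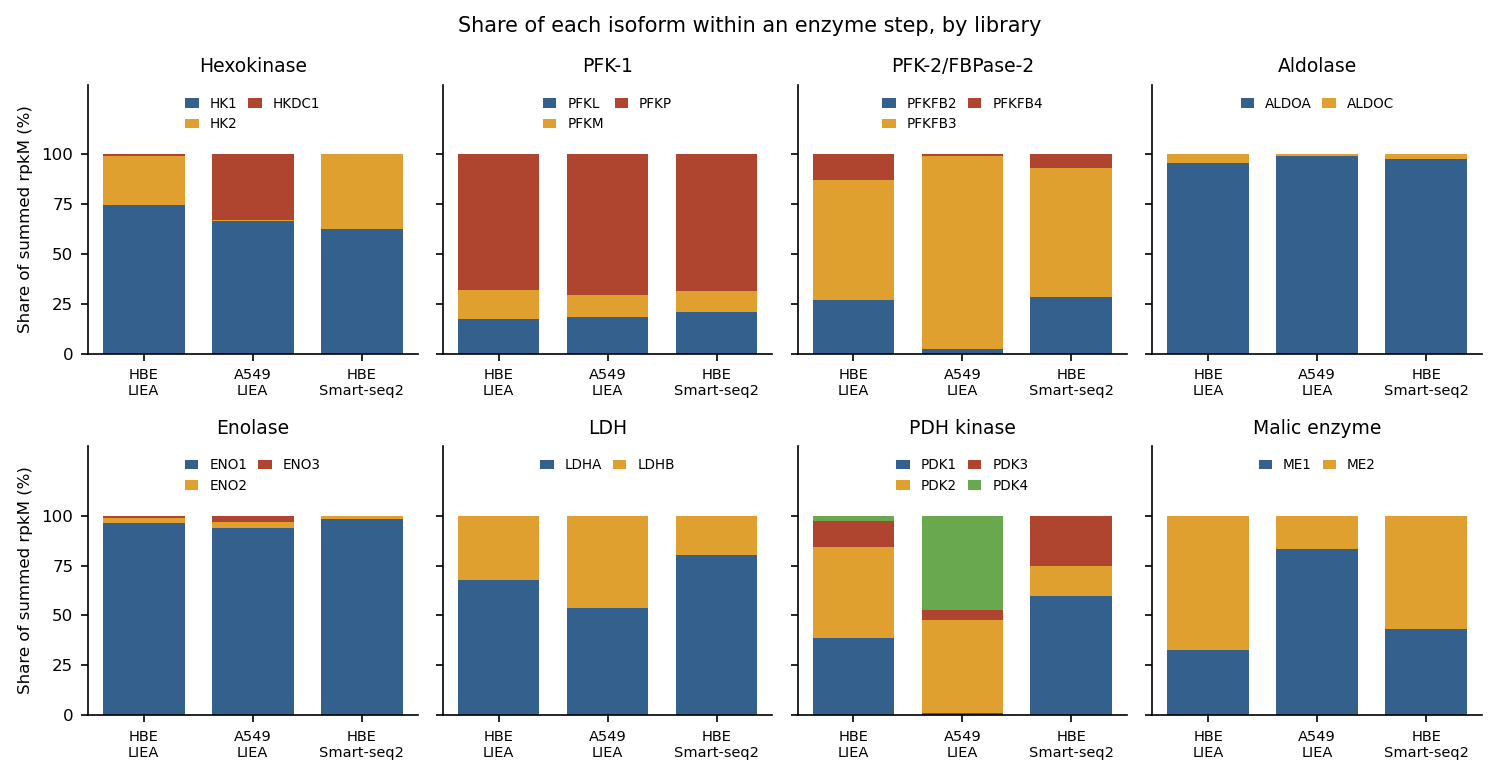
Share of each gene in the summed rpkM of its enzyme step, in percent, for 8 steps (panels) and the 3 libraries (bars, 1 library each), with HKDC1 and PDK4 included. HK2, at 24.6% of HK1 and HK2 in HBE by LIEA, is barely visible in A549, PFKFB3 fills 96.7% of its step in A549, and the phosphofructokinase bars are nearly equal.

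The comparison of LIEA with Smart-seq2, both on HBE RNA, addresses how the method weighs on these enzymes. Of the 37 members, 4 were at least 2-fold higher by LIEA (10.8%), against 28.2% of the 13314 genes compared, and 7 were at least 2-fold lower (18.9%), against 21.9%. Rescaled to TPM, the split was 6 higher and 4 lower. The other 26 members were within 2-fold, and the share of lower members lay near that of all genes. The median log2 ratio was 0.05 for the members and 0.04 for all genes. The counting interval held 1 for TALDO1 alone, a count that depends on read depth and was not made over all genes. The direction of 2 members turned with TPM, which shifted the median of all genes by 0.20, namely HK2 (log2 ratio -0.12) and TALDO1 (-0.02).

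Higher by LIEA were PDK2 (3.66-fold, 2.50 to 5.41), ENO3 (3.60-fold, 2.07 to 6.40), PFKFB4 (2.79-fold, 2.05 to 3.82) and ENO2 (2.59-fold, 1.98 to 3.40). All 4 had at most 125 reads in either HBE library. They stood in the middle range of the listed genes, at percentiles 48.5 to 65.1 in LIEA and 36.0 to 52.0 in Smart-seq2. Lower by LIEA was above all LDHA, with 8829 reads in LIEA and 68400 in Smart-seq2, a 3.62-fold lower level (3.55 to 3.71). It was followed by ME1 (2.74-fold), BPGM (2.67-fold), PDHB (2.33-fold), RPE (2.29-fold), PGK1 (2.27-fold) and PDHA1 (2.14-fold). These 7 ran from low to very high levels. With TPM the ratios of PGK1, PDHA1 and RPE fell back within 2-fold, and those of PFKM and PGD passed it upwards. GAPDH was 1.66-fold higher by LIEA (1.64 to 1.68) and ALDOA 1.23-fold lower (1.20 to 1.26), while ENO1 differed by 0.05 on the log2 scale.

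Of the other genes of these pathways, 29 could be compared between the methods. Of these, 9 were at least 2-fold higher and 9 at least 2-fold lower by LIEA, 31.0% each way. Over all genes compared, 28.2% were higher and 21.9% lower. With at least 50 reads in 1 library, H6PD (5.03-fold), PDPR, a regulator of the pyruvate dehydrogenase phosphatase (4.11-fold), PGP (3.94-fold), PDP1 (3.16-fold) and PC, pyruvate carboxylase (2.65-fold), were higher by LIEA. TIGAR, a fructose bisphosphatase listed under its older symbol C12orf5 (5.10-fold), MPC1 (3.30-fold), RBKS, ribokinase (2.75-fold), ADPGK, which phosphorylates glucose with ADP (2.67-fold), DLD (2.62-fold), PDHX (2.58-fold) and MPC2 (2.26-fold) were lower, as were PGAM4 and RPEL1, the near copies of PGAM1 and RPE.

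By role, the glycolytic enzymes summed to 11330 rpkM by LIEA and 8895 by Smart-seq2, or to 4140 and 4554 without GAPDH, whereas lactate dehydrogenase summed to 1227 and 3763 rpkM. The pentose phosphate enzymes summed to 1086 and 930.6 rpkM. Thus the pentose phosphate sum differed little between the methods beside its ratio of 3.69 between the lines, and the lactate dehydrogenase sum differed more between the methods than between the lines. The sum over all 37 members was 13910 rpkM by LIEA and 13930 by Smart-seq2, but this near equality rests on GAPDH. Without GAPDH the sums were 6721 and 9589 rpkM.

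The ratio of LIEA to Smart-seq2 went with the GC content of the transcript. Across the 37 members, which share the same pair of libraries and are not independent replicates, Pearson's r with GC content was 0.58 and Spearman's rho 0.56, against 0.37 and 0.38 across 12959 genes. With the recovered transcript length, rho was 0.13 for the members and 0.26 across the same 12959 genes. The 12 members below 45% GC had a median log2 ratio of -0.999, against -0.50 for all genes in that range. Among them LDHA, PGK1, ME1 and RPE were lower by LIEA, but PFKFB2 (0.51), IDH1 (0.31) and DLAT (0.20) were higher. The 3 members between 45 and 50% GC had a median of -0.92 against 0.04, and the 9 between 50 and 55% 0.425 against 0.343. The 10 members between 55 and 60% GC, among them GAPDH, PDK2, ENO2, ENO3 and TKT, had a median of 0.72 against 0.63. In that range TPI1 was lower by LIEA (-0.87). The 3 members at or above 60% GC, PFKL, ALDOA and PGLS, lay at -0.30 to 0.16, below the median of 1.05 for all such genes. The part of GC content in the ratios was not tested.

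**Figure D4:**
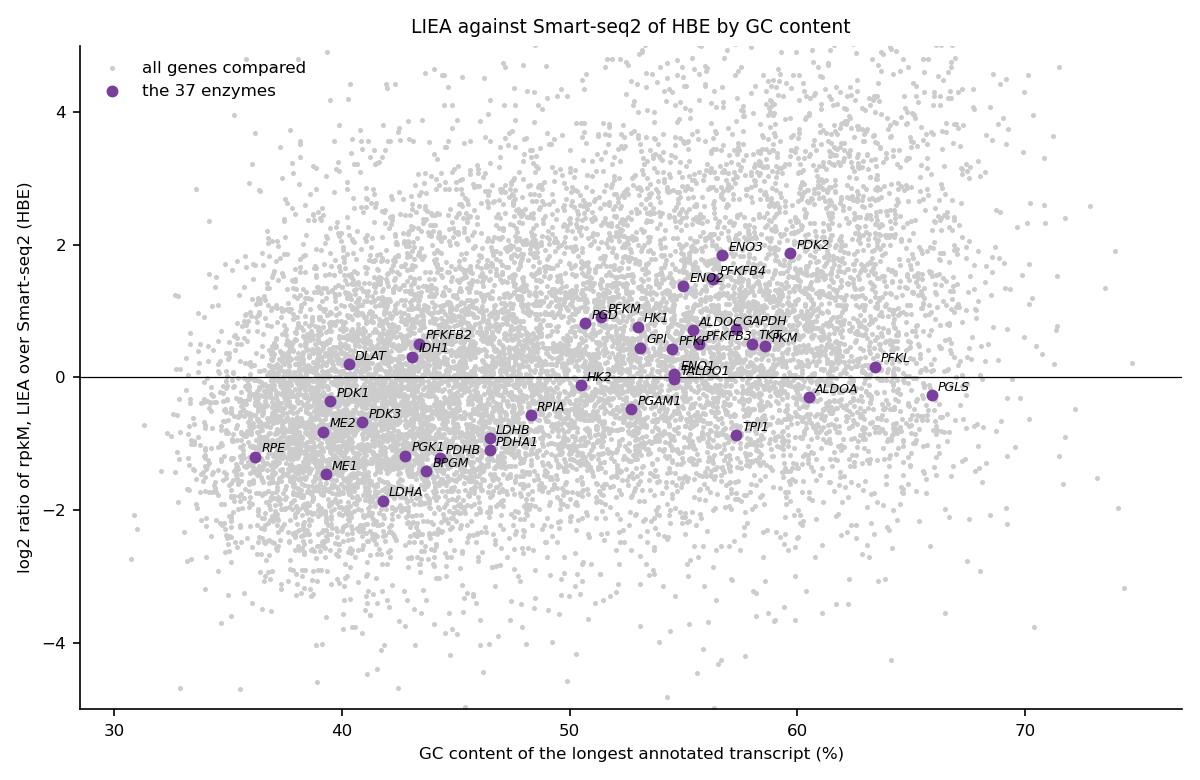
Log2 ratio of rpkM in LIEA over Smart-seq2, both of HBE, against the GC content of the longest annotated transcript in percent, for all genes compared (grey) and the 37 enzymes (purple, named). Each point is 1 gene, and 157 genes lie outside the vertical range. LDHA lies lowest among the enzymes at -1.86 and 41.8% GC, and PDK2 highest at 1.87 and 59.7% GC.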

How the data were processed

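Gene expression was measured in 3 libraries, A549 and HBE by LIEA and HBE by Smart-seq2. Reads had been aligned by the authors to RefSeq-RNA using FANSe2, with splice variants combined into 1 value per gene. The deposited unit is log2 rpkM, without a pseudocount, and genes without reads are not listed. The submitters' processing notes name hg19. In each library 4 rows with repeated, date-like gene names were left out.

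Since rpkM is reads over transcript length and total, whole reads were recovered. For the total, the highest integer was taken at which at least 60% of the 300 lowest genes gave a whole length (tolerance 0.0002 nt) with 1 read, and at the totals chosen between 95.3 and 97.3% did. A gene's reads and length share a whole factor. Of the factors 1 to 12, the most probable by annotated lengths was used, which exceeded 1 in 1735 of 18856 genes. Summed over genes, reads came to between 99.8 and 100.9% of the totals, so some factors are too large. PKM had a recovered length of 946 nt, under its shortest annotated transcript, so its reads may be too few. Folds of rpkM do not depend on the factor, whereas bounds from the floor do. The recovery was tested on simulated data.

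Genes listed in both libraries, with at least 10 reads in 1 of them, were compared by the ratio of rpkM and called past 2-fold. Counting intervals are exact (Clopper-Pearson, 95%), and the floor was 3 reads. GC content and hg19 coordinates came from GENCODE release 44 on GRCh37, promoters from RefSeq. All 37 members are named, and of 47 further pathway genes those past 2-fold with at least 50 reads in 1 of the libraries compared, except items not reported here. The members and lists were chosen with earlier results of these data known. Protein sequences were not used here. Alternatives were TPM, centring on the median of all genes, totals without MTRNR2L and MIR genes, log2(rpkM + 1), no filter on reads, rpkM above 1, at least 50 reads, 1.5-fold, geometric means, shares of reads and the smallest whole reads. Scripts ran under Python 3.11.15 with pandas 2.3.3, numpy 2.4.6, matplotlib 3.10.9 and scipy 1.17.1.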

Additional observations from a re-analysis of the deposited data

How the results depend on the processing

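Of 55 values recomputed under the alternatives, 43 stayed within the limits set (1.5 times for a count, the counting or order-statistic interval otherwise), 10 moved past them and 2 changed direction. The members' median log2 ratio of A549 to HBE (0.06) was -0.10 with TPM. At 1.5-fold, 11 members were lower in A549 than in HBE (7 at 2-fold), and LIEA against Smart-seq2 had 9 members higher (4) and 11 lower (7). With TPM, 4 members were lower by LIEA than by Smart-seq2. The A549 to HBE ratio of the glycolytic sum (0.959) was 0.859 with TPM, 0.974 with totals without MTRNR2L and MIR genes and 0.749 by geometric means, and without GAPDH it turned to 1.23. That of the pentose phosphate sum (3.69) was 3.31 with TPM and 2.25 by geometric means. Taken from reads in place of rpkM, 2 steps had another leading gene in A549, against 1. The cause was not tested, other than that geometric means weight each gene equally, that a lower fold limit admits more genes and that reads weight long transcripts more. The comparison with both HBE libraries and the sum without GAPDH were chosen after seeing the data. No paired analysis was possible because every group had a single library, which also means that leaving out a replicate could not be tried. Depth limits the values of HK2 in A549 (8 reads), ENO3 in Smart-seq2 (22 reads), PFKFB4 in A549 (23 reads) and, with 33 reads each, PDK1 and ALDOC in A549 and BPGM in LIEA of HBE.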
